A study of Mus musculus with 7 samples.

Results

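Glycolysis converts glucose to pyruvate in the cytosol and yields ATP without oxygen. Hexokinases (Hk1, Hk2) phosphorylate glucose, glucose phosphate isomerase (Gpi1) turns it into fructose phosphate, and phosphofructokinase (Pfkl, Pfkm and Pfkp, the liver, muscle and platelet subunits) adds the phosphate that commits the sugar to the pathway. Aldolase A (Aldoa) splits the sugar, phosphoglycerate kinase (Pgk1) makes ATP, enolase (Eno1) makes phosphoenolpyruvate, and pyruvate kinase (Pkm) makes ATP and pyruvate. Embryonic and proliferating tissues are known for high glycolytic flux even where oxygen is present, and the Pkm2 splice form of Pkm is the usual form there. The 10 enzymes described here were listed by name, with earlier results of these data known. Of the 10, 8 had a probe on the array, each read as 1 feature, which is a distinct row of intensity values, and 7 lay above the detection limit. In all, 16565 genes had a feature and 10087 were above that limit. Gpi1 and Eno1 had no probe under those symbols or gene IDs and were not analysed here. A probe annotated to Eno1b was present and was not taken for Eno1.

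The study asked how the ADAMTS metalloproteases that cleave the matrix proteoglycan versican act in closure of the mouse secondary palate. Palatal shelves, the paired outgrowths that later fuse into the palate, were dissected at E13.75 and hybridised to Illumina bead arrays. The 3 control arrays were from wild-type C57BL/6 shelves and the 4 mutant arrays from Adamts9+/-;bt/bt shelves, also C57BL/6. The mutants carried 1 mutant copy of Adamts9 and were homozygous for bt (belted), the mutant allele of Adamts20, and no tissue was treated. Both alleles were present in all cells of the embryo rather than in the palate alone. Each array came from a separate embryo of matched age, and the sources used here do not say whether the groups shared litters. Precision is limited by there being only 7 arrays.

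The targeted genes could not check the genotype labels. Adamts9 had no probe, and Adamts20 was below the detection limit in both groups (5.98 ± 0.07, SD, n = 3, in wild type and 5.99 ± 0.04, SD, n = 4, in mutants, as log2 normalised intensity). All 10 measured markers of palatal mesenchyme were above the limit, among them Twist1, Osr2, Msx1 and Prrx1. The upper quartile of intensity was 209 to 248 on the wild-type arrays and 172 to 200.2 on the mutant arrays. Wild-type replicate 3 lay apart from its group, at -13.0 on the first principal component against -24.4 and -30.8 for the other wild-type arrays and 14.9 to 20.3 for the mutants. Results that rest on it are given with and without it. Because whole shelves were measured, fewer cells of a type and less RNA per cell cannot be told apart.

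The promoters of the 3 members that passed the test are shown because glycolytic genes are classic targets of hypoxia-inducible factor, whose binding core is ACGTG or, with a change at the first base, GCGTG. The windows run from 250 bases before to 50 bases after the gene start and are RefSeq sequence of build GRCm38.p6, printed on the gene's strand from 5′ to 3′. Capitals mark either core read on either strand, so a match on the opposite strand appears as its reverse complement. A core and its reverse complement can overlap. Pkm has a pair of annotated start windows, at chr9:59656326-59656625 and chr9:59656977-59657276 on the plus strand. Pfkp lies at chr13:6648722-6649021 and Pfkl at chr10:78009758-78010057, both on the minus strand.
Pkm window 1: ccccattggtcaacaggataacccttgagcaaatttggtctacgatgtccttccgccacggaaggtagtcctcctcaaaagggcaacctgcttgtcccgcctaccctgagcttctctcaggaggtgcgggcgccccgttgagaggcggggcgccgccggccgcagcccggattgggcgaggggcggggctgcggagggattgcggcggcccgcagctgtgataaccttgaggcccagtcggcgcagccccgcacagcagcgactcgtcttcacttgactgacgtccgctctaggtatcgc
Pkm window 2: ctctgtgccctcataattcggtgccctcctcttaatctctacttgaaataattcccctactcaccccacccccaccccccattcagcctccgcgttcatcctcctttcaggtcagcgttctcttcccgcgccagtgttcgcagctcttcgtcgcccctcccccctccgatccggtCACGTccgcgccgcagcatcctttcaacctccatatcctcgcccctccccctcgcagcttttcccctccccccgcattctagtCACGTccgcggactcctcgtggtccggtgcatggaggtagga
Pfkp: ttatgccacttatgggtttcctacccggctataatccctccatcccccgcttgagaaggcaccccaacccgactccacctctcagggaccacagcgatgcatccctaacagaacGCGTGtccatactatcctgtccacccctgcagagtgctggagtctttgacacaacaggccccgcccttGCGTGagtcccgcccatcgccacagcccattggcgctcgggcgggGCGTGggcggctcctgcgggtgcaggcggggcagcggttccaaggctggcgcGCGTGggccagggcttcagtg
Pfkl: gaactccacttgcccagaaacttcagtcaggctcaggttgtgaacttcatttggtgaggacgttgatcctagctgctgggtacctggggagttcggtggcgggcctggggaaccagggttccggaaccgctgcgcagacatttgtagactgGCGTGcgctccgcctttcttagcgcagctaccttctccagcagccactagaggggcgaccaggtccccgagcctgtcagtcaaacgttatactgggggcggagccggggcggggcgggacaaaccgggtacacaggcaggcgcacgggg

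Pkm window 1 held neither motif and window 2 held 2 matches, beginning at -75 and 8 when the start base is counted as 0. The Pfkp window held 4 matches to GCGTG, at -136, -68, -23 and 29, and the Pfkl window held 1, at -99. All 10 listed enzymes had RefSeq windows, 19 in number, and 14 windows from 9 enzymes held either motif. Over all 32851 RefSeq windows of this length, 43.8% held either motif, with 19.6% for ACGTG and 32.4% for GCGTG. Counted by gene over any of its windows, the share was 46.7% of 27025 genes. The listed enzymes had more windows per gene than genes at large, which gives more chances of a match. Some windows of Eno1, Aldoa and Pfkm overlap, so the same match can be counted more than once. A match describes letters in the window and is not evidence of binding.

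Among the 7 members above the limit, Pfkp and Pfkl rose and Pkm fell in mutant shelves, while Hk1, Hk2, Pfkm and Aldoa did not pass the test. The test was limma over 10869 detected features at a Benjamini-Hochberg adjusted p of 0.05, which called 36.8% of all features, 16.9% higher and 19.8% lower in mutants. The members' 2 higher and 1 lower of 7 are to be read against those shares. The arrays of the groups did not overlap for Pkm, Pfkp and Pfkl, and the same was true of 42.6% of all detected features. The median log2 difference, mutant minus wild type, was -0.07 over the 7 members above the limit and -0.0034 over all detected features, and it was 0.01 when Pgk1, below the limit, was added. Scaling mattered for these counts. With median centring in place of quantile normalisation the median of all features moved to -0.14, the share of calls that were higher in mutants went from 46.1% to 16.4%, and the members' count became 1 higher and 4 lower.

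**Figure D1:**
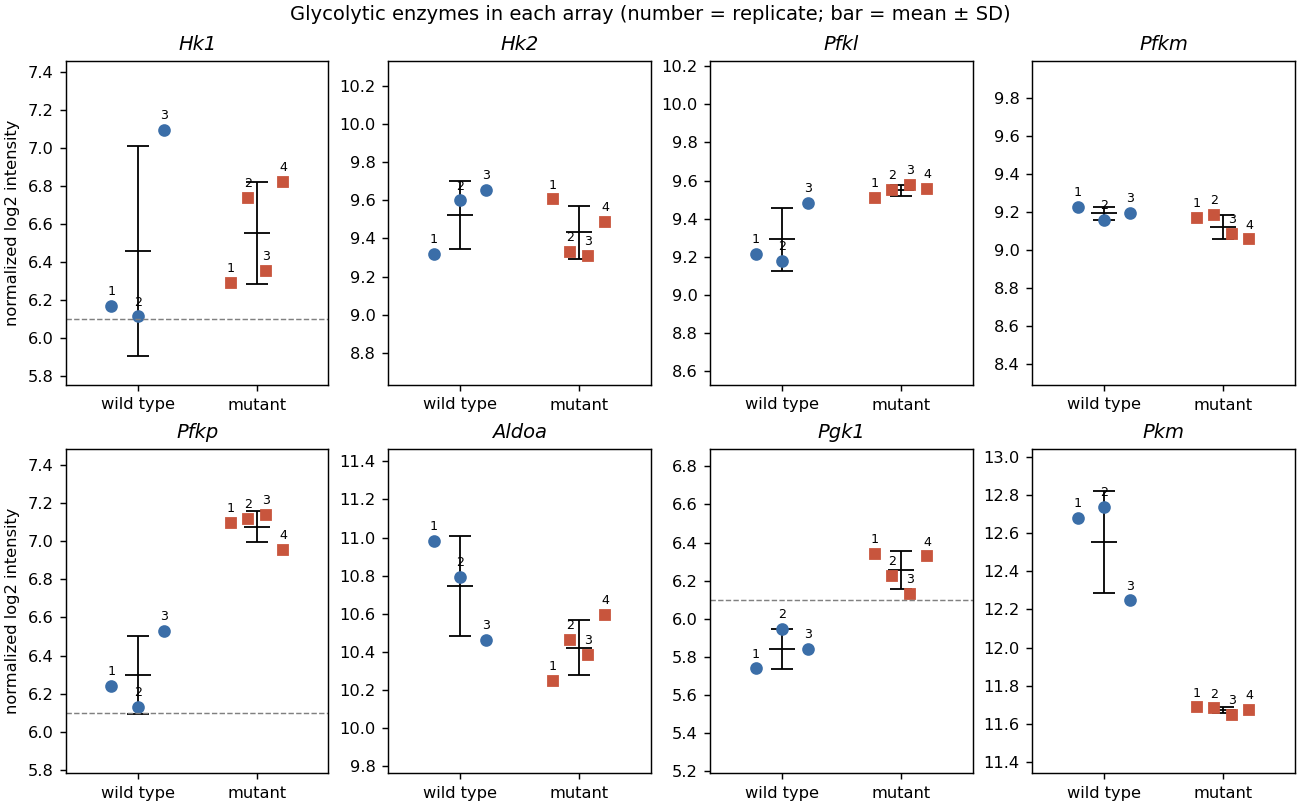
Log2 normalised intensity of the 8 measured glycolytic enzymes on each array, with wild-type arrays (n = 3) and Adamts9+/-;bt/bt arrays (n = 4) side by side, points numbered by replicate and bars for mean and SD. The mutant arrays lie wholly below the wild-type arrays for Pkm and wholly above them for Pfkp, Pfkl and Pgk1, and levels are not comparable between panels because each probe has its own response.

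The hexokinases trap glucose in the cell, Hk1 being the broadly expressed form and Hk2 the form induced by insulin and hypoxia. Hk1 read 6.17, 6.11 and 7.10 on the wild-type arrays and 6.29, 6.74, 6.35 and 6.82 on the mutant arrays (log2). The highest and the lowest arrays were both wild type, so the mutant arrays lay inside the wild-type range. The means were 6.46 ± 0.55 (SD, n = 3) and 6.55 ± 0.27 (SD, n = 4), a log2 difference of 0.09 (SE 0.24, 95% interval -0.45 to 0.63, limma adjusted p = 0.805). This probe was dim, at intensities of 61.5 to 128 in wild type and 69.5 to 93.3 in mutants. Wild-type replicate 3 decided the sign: the difference was -0.54 against that array alone and 0.41 without it.

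Hk2 read 9.32, 9.60 and 9.65 in wild type and 9.60, 9.33, 9.31 and 9.49 in mutants (log2). The groups overlapped, and wild-type replicate 1 sat among the lowest mutant arrays. The log2 difference was -0.09 (SE 0.10, 95% interval -0.32 to 0.14, limma adjusted p = 0.53). With median centring it passed the test at -0.39.

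Phosphofructokinase catalyses the main regulated step of the pathway and works as a tetramer of the liver, muscle and platelet subunits. Pfkp, the platelet subunit, read 6.24, 6.13 and 6.53 in wild type and 7.10, 7.12, 7.14 and 6.96 in mutants (log2). Every mutant array was above every wild-type array. The means were 6.30 ± 0.21 (SD, n = 3) and 7.08 ± 0.08 (SD, n = 4), and Pfkp rose by 0.78 on the log2 scale, or 1.71-fold (SE 0.10, 95% interval 0.559 to 0.995, limma adjusted p = 0.000438). An exact permutation test (two-sided, all 35 splits of the 7 arrays into 3 and 4) gave p = 0.0286, the smallest it can give. As deposited, the intensities were 69.2, 62.3 and 81.4 in wild type and 126, 121, 120 and 102 in mutants, so the wild-type arrays lay close to the detection limit and the size depends on the background. A background offset of 16 in place of 50 gave 1.18. All 17 alternatives kept the call. The difference was 0.55 against wild-type replicate 3 alone, a fit in which that lone array is assumed to vary like the mutant arrays. Among detected features, 2.78% rose by more.

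Pfkl, the liver subunit, read 9.21, 9.18 and 9.48 in wild type and 9.51, 9.55, 9.58 and 9.56 in mutants (log2). The groups did not overlap, but wild-type replicate 3 was only just below the lowest mutant array. Pfkl rose by 0.26 on the log2 scale, or 1.20-fold, with means of 9.29 ± 0.17 (SD, n = 3) and 9.55 ± 0.03 (SD, n = 4), but the sign turned with median centring, at -0.05. That rise had an SE of 0.08, a 95% interval of 0.08 to 0.44 and a limma adjusted p of 0.0300. In the deposited intensities the order was the other way, with a mean of 712 in wild type and 669 in mutants. The call was lost without wild-type replicate 1 (0.22), wild-type replicate 2 (0.20) or mutant replicate 2, 3 or 4 (0.26, 0.25 and 0.26), and against wild-type replicate 3 alone the difference was 0.07.

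Pfkm, the muscle subunit, read 9.23, 9.16 and 9.19 in wild type and 9.17, 9.19, 9.08 and 9.06 in mutants (log2). The groups overlapped and all 7 arrays lay close together. The log2 difference was -0.07 (SE 0.06, 95% interval -0.20 to 0.06, limma adjusted p = 0.371), and with median centring it passed the test at -0.39. The summed picture for muscle is given beside it: the mean of 16 detected skeletal muscle markers was 8.910, 7.763 and 8.998 in wild type and 8.867, 9.474, 8.951 and 8.931 in mutants. By the test 1 of the 16 was higher, where the share over all detected features was 16.9%. Ckm and Myf5 were below the limit. The part of muscle in the Pfkm value was not tested.

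Differences between subunits within an array do not move with a factor that multiplies the whole array. Those with the dim Pfkp do move with the background. For the 4 pairs described here no test is given, since they were chosen after the single values had been seen and restate them. Pfkp minus Pfkl was -2.99 ± 0.05 (SD, n = 3) in wild type and -2.47 ± 0.09 (SD, n = 4) in mutants, a shift of 0.52. Pfkp minus Pfkm shifted by 0.85, from -2.89 ± 0.20 to -2.05 ± 0.07, and Pfkl minus Pfkm by 0.33, from 0.10 ± 0.17 to 0.43 ± 0.08. In each of these 3 pairs every mutant array was above every wild-type array. In the deposited intensities, without normalisation, the same log2 ratios shifted by 0.82, 1.16 and 0.34. Over the alternatives run, the shifts ranged from 0.48 to 0.91, 0.62 to 1.26 and 0.14 to 0.42. Hk1 minus Hk2 went from -3.06 ± 0.47 to -2.88 ± 0.33, a shift of 0.18 with overlapping groups.

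**Figure D2:**
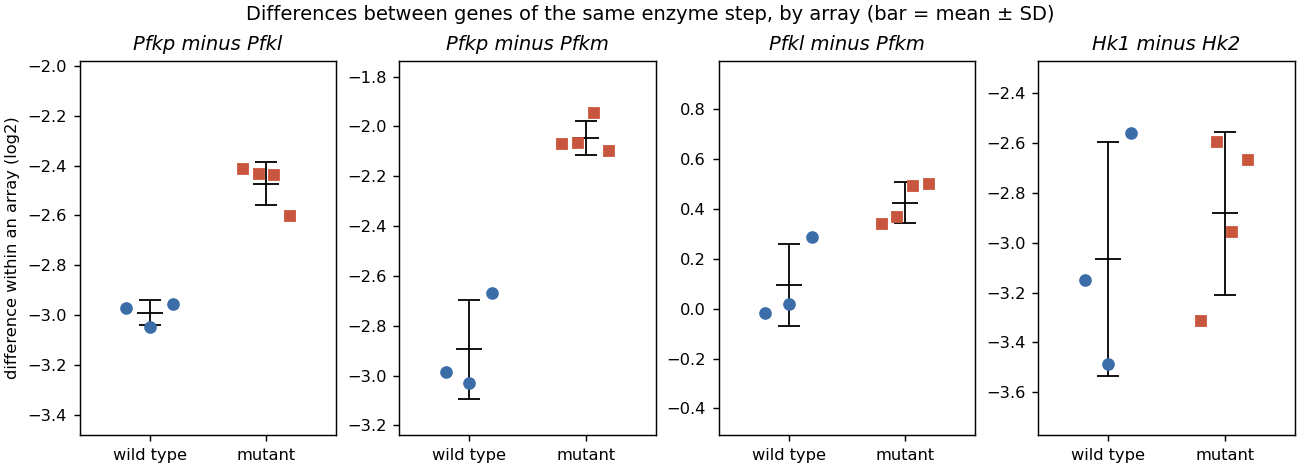
Within-array log2 differences between phosphofructokinase subunits and between the hexokinases, 1 point per array, with the wild-type arrays (n = 3) and mutant arrays (n = 4) shown with mean and SD. The mutant points lie above all wild-type points in the 3 phosphofructokinase pairs and overlap them for Hk1 minus Hk2. Each difference also contains the unknown difference in response of its probes, so only its shift between groups is read.

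Aldolase A cleaves the doubly phosphorylated fructose into triose phosphates. Aldoa read 10.98, 10.79 and 10.46 in wild type and 10.25, 10.46, 10.38 and 10.59 in mutants (log2). Wild-type replicates 1 and 2 were above all mutant arrays, and wild-type replicate 3 lay among them. The means were 10.74 ± 0.26 (SD, n = 3) and 10.42 ± 0.15 (SD, n = 4), a log2 difference of -0.32 (SE 0.13, 95% interval -0.61 to -0.04), which did not pass the test (limma adjusted p = 0.0743). Aldoa passed it without wild-type replicate 3 (-0.46, limma adjusted p = 0.00669), with array weights (-0.45) and with median centring (-0.56), and against that array alone the difference was -0.04. The deposited intensities were 2387, 2091 and 1403 in wild type and 1237, 1268, 1222 and 1301 in mutants.

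Phosphoglycerate kinase catalyses the first ATP-forming step. Pgk1 read 5.74, 5.95 and 5.84 in wild type and 6.34, 6.22, 6.13 and 6.33 in mutants (log2). Its mean over all arrays, 6.08, was just below the detection limit of 6.10, so it was not among the features tested. The mutant arrays were above all wild-type arrays, with a log2 difference of 0.41 and an exact permutation p of 0.0286. The deposited intensities were 44.7, 53.8 and 46.2 against 72.6, 64.9, 58.9 and 66.1, where the array floor sets much of the value. An offset of 16 gave 0.86 in place of 0.41, and with no detection limit limma gave an adjusted p of 0.00288.

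Pyruvate kinase ends the pathway. Pkm read 12.68, 12.74 and 12.25 in wild type and 11.69, 11.68, 11.65 and 11.67 in mutants (log2). All mutant arrays were below all wild-type arrays, the mutants spanned 0.04 and the wild-type arrays 0.49, and wild-type replicate 3 was the wild-type array nearest the mutants. The means were 12.55 ± 0.27 (SD, n = 3) and 11.67 ± 0.02 (SD, n = 4), and Pkm fell by 0.88 on the log2 scale, or was 1.84-fold lower (SE 0.11, 95% interval -1.13 to -0.64, limma adjusted p = 0.000433, exact permutation p = 0.0286). The deposited intensities, 7835, 7723 and 4760 in wild type and 3258, 2972, 2875 and 2683 in mutants, were far above the floor and showed the same order. All 17 alternatives kept the call, with differences of -1.13 to -0.58. The smallest was that against wild-type replicate 3 alone, where the spread comes from the mutant arrays only, and without that array the difference was -1.04. Among detected features, 1.65% fell by more. The gene has 1 probe ID, whose target exons were not used here, so the Pkm1 and Pkm2 splice forms could not be told apart.

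Wild-type replicate 3 was nearer to the mutant mean than to the mean of the other wild-type arrays for Hk1, Pfkl and Aldoa, 3 of the 7 detected members. The same held for 40.1% of all detected features.

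**Figure D3:**
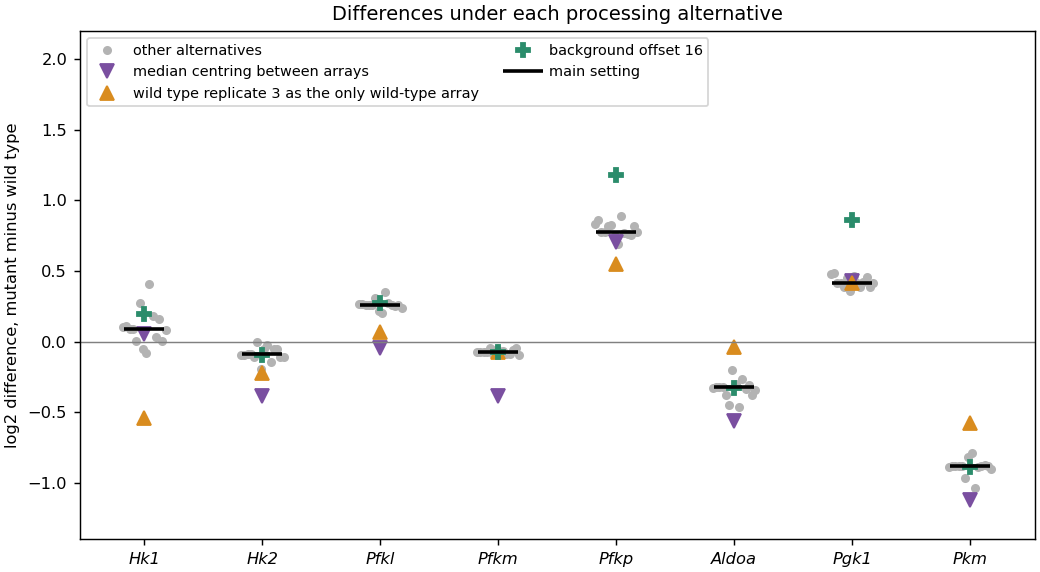
Log2 difference, mutant minus wild type, of each measured member under the reported processing and under the 17 alternatives. Pkm stays between -1.13 and -0.58 and Pfkp between 0.55 and 1.18, whereas Hk1 and Pfkl cross 0.

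The detected genes whose 7-array profile, centred on its mean, lay closest to that of Pfkp were Lypla2, Atp6ap2 and Nipsnap1, with root mean square log2 differences of 0.048, 0.061 and 0.063. For Pkm they were Kif2c, Tm9sf4 and Svep1, at 0.044, 0.046 and 0.052. These are descriptions over 7 arrays that share the group difference.

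The other enzymes of the pathway were followed in a fixed list of 15, of which 13 had a probe and 8 were above the limit. Of the 8, 2 rose and 6 did not pass, with a median log2 difference of 0.03. Counts in this list and in those below are to be read against 16.9% higher and 19.8% lower over all detected features. Eno2, the neuronal enolase, read 7.41, 7.33 and 7.34 in wild type and 8.04, 8.07, 8.27 and 8.11 in mutants (log2), with no overlap. Eno2 rose by 0.76, or 1.70-fold (SE 0.07, limma adjusted p = 0.00012), and all 17 alternatives kept the call. The Eno1b probe, outside the list, did not pass, with a log2 difference of -0.06 (limma adjusted p = 0.787). Aldoc, the aldolase of brain, rose by 0.34 from 6.80 ± 0.19 (SD, n = 3) to 7.14 ± 0.11 (SD, n = 4), with a limma adjusted p of 0.0226. The Aldoc call was lost with median centring (0.19) and with the replicate number as a block. It was also lost without wild-type replicate 1 or 3 or mutant replicate 1, 3 or 4, where the difference was 0.25 to 0.35. The housekeeping steps gave small differences that did not pass: 0.0035 for triose phosphate isomerase Tpi1 (limma adjusted p = 0.974), -0.09 for glyceraldehyde phosphate dehydrogenase Gapdh (0.253) and 0.06 for phosphoglycerate mutase Pgam1 (0.532). The signs of Tpi1 and Pgam1 turned with median centring, to -0.25 for each.

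Neuronal markers moved in the direction of Eno2, Aldoc and Pfkp. Of 16 detected neuronal markers 15 were higher in mutants by the test, where the share over all features was 16.9%, with a median log2 difference of 1.98. Their mean was 7.75, 6.83 and 7.68 on the wild-type arrays and 9.03, 9.35, 9.47 and 9.23 on the mutant arrays. Nefl and Snap25 were below the limit. The mean of 11 endothelial markers was 8.13 to 8.32 in wild type and 7.80 to 7.97 in mutants, and that of 10 palatal mesenchyme markers was 8.89 to 9.05 and 8.58 to 8.81, in both cases lower on every mutant array, as Pkm was. The mean of 6 red cell markers was 10.70 to 11.10 in wild type and 10.50 to 10.72 in mutants, with overlap. By the test 5 endothelial, 3 mesenchymal and 2 red cell markers were lower, where the share over all features was 19.8%, and the other 6, 7 and 4 did not pass. With median centring 7, 7 and 5 were lower. In the reported processing the median log2 differences of these lists were -0.24, -0.17 and -0.25. The largest mesenchymal falls were those of Msx1 (-1.27) and Twist1 (-1.23). Osr1 (0.19), Tbx22 (0.12) and Pax9 (0.02) were higher in mutants without passing. So were the endothelial Plvap (0.20), Flt1 (0.12), Kdr (0.03) and Emcn (0.01). Tbx22, Pax9 and Kdr lay near the detection limit. The part of these cell types in the glycolytic values was not tested.

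**Figure D4:**
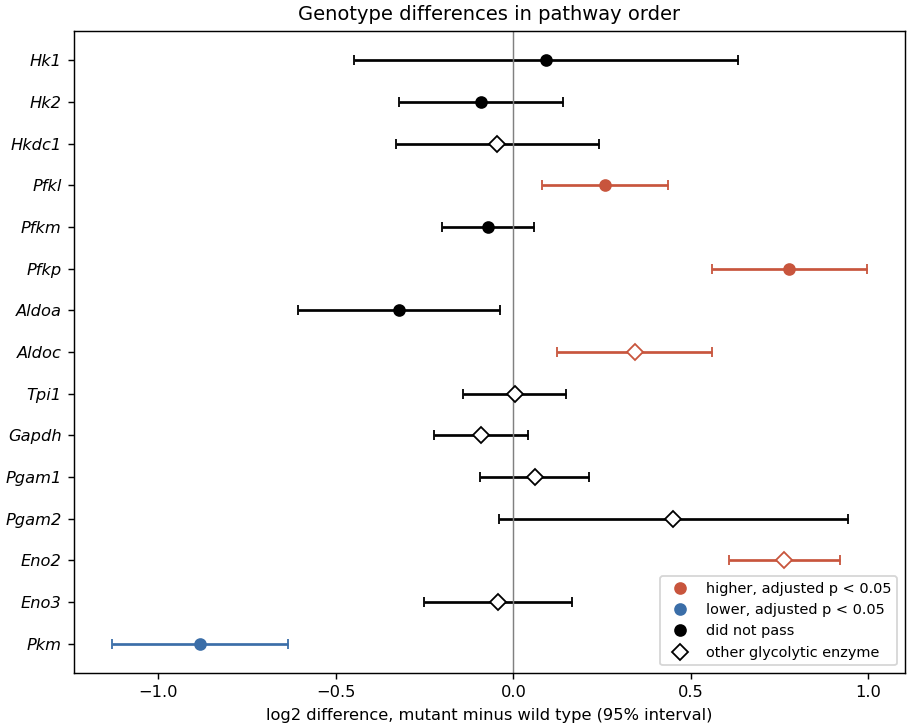
Log2 difference, mutant minus wild type, with 95% interval, for the detected glycolytic enzymes ordered along the pathway, members and other isozymes marked apart. Pkm is lowest at -0.88 and Pfkp and Eno2 are highest at 0.78 and 0.76, while most intervals include 0. With median centring the sign turns for Pfkl, Tpi1 and Pgam1.

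Glucose enters and lactate leaves through carriers, and lactate dehydrogenase links pyruvate to lactate. Of 6 detected genes of that list, 2 fell and 4 did not pass (median -0.17), where 19.8% of all detected features were lower. Slc2a10, a glucose transporter family member of internal membranes, fell by 0.55 on the log2 scale, from 7.15 ± 0.13 (SD, n = 3) to 6.60 ± 0.06 (SD, n = 4), with a limma adjusted p of 0.000579. Slc2a8 fell by 0.19 (limma adjusted p = 0.0227), with mutant intensities of 64.3 to 74.3, near the floor. The main embryonic glucose carrier Slc2a1 did not pass, with 0.03 (limma adjusted p = 0.872) and -0.26 with median centring. Ldha, the lactate-forming subunit, was at -0.17 (limma adjusted p = 0.113), and it passed the test with median centring at -0.45.

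The list of genes that control phosphofructokinase, hexokinase and pyruvate kinase had 4 detected members, with 2 higher, 1 lower and 1 that did not pass (median 0.21). Txnip, which restrains glucose uptake, rose by 0.48 (limma adjusted p = 0.00211). Pfkfb4, which sets the level of the fructose bisphosphate that activates phosphofructokinase, rose by 0.29 (limma adjusted p = 0.00932). Adpgk, an ADP-dependent glucokinase, fell by 0.28 (limma adjusted p = 0.0427). Neither Txnip nor Pfkfb4 passed with median centring, where the differences were 0.17 and 0.11.

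Pyruvate dehydrogenase carries pyruvate into the mitochondrial acetyl pool and is switched off by its kinases. Of 10 detected genes, 1 rose, 2 fell and 7 did not pass (median 0.05). The kinases Pdk2 and Pdk3 fell by 0.55 and 0.32 (limma adjusted p = 0.00156 and 0.00356). The E1 subunit gene Pdhb rose by 0.34 (limma adjusted p = 0.0227). The mean deposited intensity of Pdhb was 327 in wild type and 326 in mutants, and its difference went down to 0.041 over the 17 alternatives. In gluconeogenesis, with 5 detected genes and a median of 0.01, pyruvate carboxylase Pcx fell by 0.35 (limma adjusted p = 0.00518). The glucose phosphatase gene G6pc3 rose by 0.58 (limma adjusted p = 0.0199). G6pc3 read 6.29, 6.15 and 6.92 in wild type and 6.96 to 7.09 in mutants (log2). Its difference was 0.81 without wild-type replicate 3 and 0.12 against that array alone. Wild-type replicates 1 and 2, at intensities of 72.3 and 63.4, lay near the floor. The mutant means of Pdk2 (6.08) and Pcx (6.08) lay below the detection limit, so both genes entered the test through their wild-type arrays and the sizes of their falls depend on the background, at -0.95 and -0.64 with an offset of 16. The pentose phosphate pathway branches off at glucose phosphate and had 5 detected genes (median -0.08). Transketolase Tkt rose by 0.35 (limma adjusted p = 0.00457), and the dehydrogenase of the endoplasmic reticulum H6pd fell by 0.32 (limma adjusted p = 0.0287). The mean deposited intensity of Tkt was 631 in wild type and 632 in mutants, and its difference went down to 0.037 over the 17 alternatives.

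In the list for glycogen and sugar nucleotides, with 8 detected genes, 1 rose, 2 fell and 5 did not pass (median -0.03). Glycogen phosphorylase Pygb read 9.99, 9.81 and 9.49 in wild type and 8.97, 9.12, 8.97 and 9.10 in mutants (log2), with no overlap. Pygb fell by 0.72, or was 1.65-fold lower (limma adjusted p = 0.0012). The phosphoglucomutase listed as Pgm1 rose by 0.56 (limma adjusted p = 0.00262). Uap1, which makes the sugar nucleotide for N-acetylglucosamine transfer, fell by 0.32 (limma adjusted p = 0.00826).

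Hypoxia-inducible factor and Myc drive glycolytic genes, and prolyl hydroxylases and Vhl mark the former for destruction. Of 9 detected regulators 1 rose, 1 fell and 7 did not pass (median 0.02). Prolyl hydroxylase Egln2 fell by 0.58 (limma adjusted p = 0.00476), and Vhl rose by 0.24 (limma adjusted p = 0.00904) but stood at -0.06 with median centring. Hif1a read 6.13, 5.95 and 7.16 in wild type and 6.99, 7.11, 7.25 and 7.06 in mutants (log2), so that wild-type replicate 3 lay among the mutants. The Hif1a difference of 0.69 (SE 0.25) did not pass (limma adjusted p = 0.057). It passed at 1.07 without wild-type replicate 3 and was -0.06 against that array alone. Wild-type replicates 1 and 2, at intensities of 62.5 and 53.8, lay near the floor. In the fit without replicate 3, Hif1a thus entered the test through its mutant arrays, and the size depends on the background. Of 9 detected hypoxia response genes outside glycolysis, 1 rose, 1 fell and 7 did not pass (median 0.06). Bnip3l, a mitophagy receptor, was up by 0.32 (limma adjusted p = 0.00619), and its difference went down to 0.079 over the 17 alternatives. Ddit4, an inhibitor of mTOR signalling, was at -0.35 (limma adjusted p = 0.00178).

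**Figure D5:**
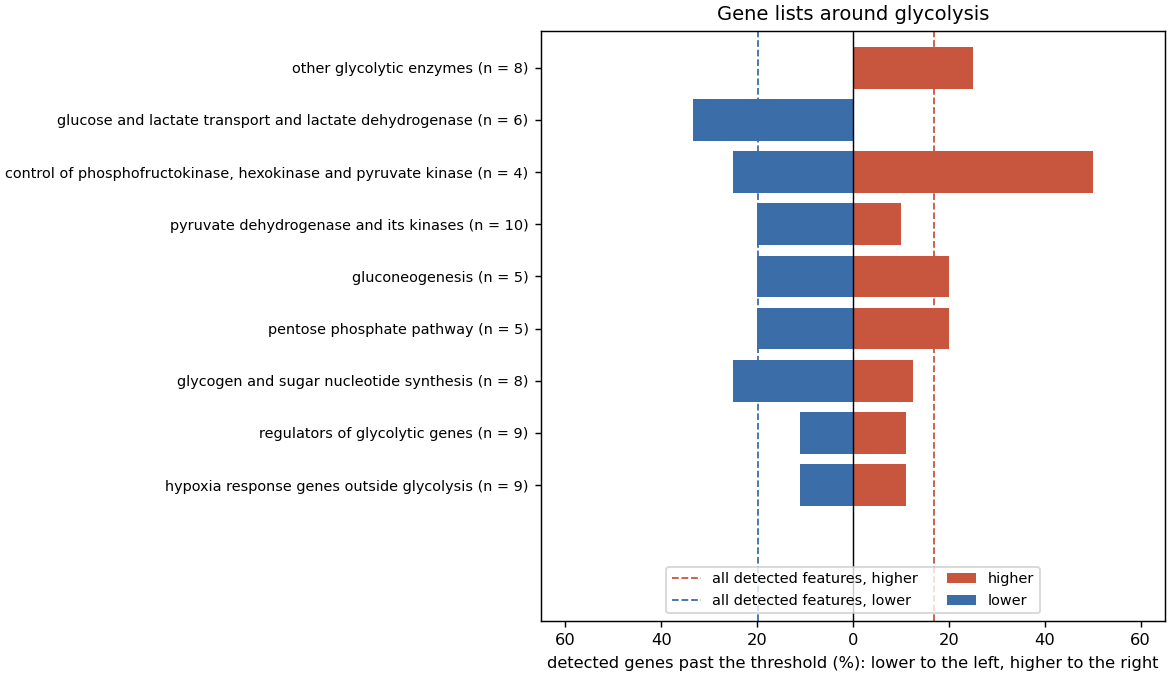
Share of detected genes past the threshold in each list around glycolysis, in percent, higher in mutants to the right and lower to the left, with n the number of detected genes. Dashed lines mark the shares over all detected features, 16.9% higher and 19.8% lower. The lists hold only 4 to 10 detected genes each, and the split moves toward lower with median centring.

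Together the 9 lists named 103 genes, of which 92 had a probe and 64 were detected. Of these 10 rose, 11 fell and 43 did not pass, so 32.8% were called beside 36.8% of all features, with a median log2 difference of 0.02. With median centring the split became 2 higher and 24 lower. The calls of Txnip, Pfkfb4, Pdhb, Tkt, Pgm1, Bnip3l, Aldoc and Vhl were among those lost there. Against wild-type replicate 3 alone, with the spread taken from the mutant arrays only, 3 were higher and 5 lower of 63. Leaving out 1 array ended the call of 6 of the 21 genes. Besides Aldoc these were Slc2a8 (wild-type replicate 1 or 2 or mutant replicate 3), Adpgk (any array except wild-type replicate 3), Pdhb (wild-type replicate 2 or mutant replicate 3 or 4), G6pc3 (wild-type replicate 1 or 2 or mutant replicate 4) and H6pd (wild-type replicate 1 or 2 or mutant replicate 3 or 4). Over all such omissions the log2 differences ran from -0.21 to -0.17 for Slc2a8, -0.39 to -0.21 for Adpgk, 0.24 to 0.40 for Pdhb, 0.43 to 0.81 for G6pc3 and -0.39 to -0.26 for H6pd.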

How the data were processed

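RNA of palatal shelves from 3 wild-type and 4 mutant embryos was labelled with the Illumina TotalPrep kit, per the labels' protocols. The authors deposited an intensity per probe ID on a linear scale, not normalised between arrays judging by the values, and a log2 value table normalised by the authors by a method that the sources used here do not name, nor do they name any background step. Intensities rather than the log2 table were the starting point here, and the authors' deposited log2 values served as an alternative, which called 3977 features against 3995.

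The 25695 probe IDs gave 18116 distinct rows of values, each 1 feature, because probe IDs of 1 gene mostly repeat 1 value. Of the probe IDs 23976 had 1 gene symbol in the platform annotation and 1719 had none. Intensities were background-corrected by normexp (offset 50), taken to log2 and quantile-normalised with limma 3.58.1 in R 4.3.3. A feature was detected when its mean exceeded the 40th percentile, 6.10. Groups were compared with limma (lmFit, eBayes, Benjamini-Hochberg over 10869 detected features, threshold 0.05) and single values with an exact permutation test over 35 splits. The procedure was tested on simulated data. The offset compresses differences of dim probes, and quantile normalisation forces equal distributions on arrays whose raw upper quartiles differed between groups.

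The members and gene lists were chosen with earlier results of these data known. All 10 members were to be named; from each related list up to 4 genes past the threshold by smallest p were named, otherwise the 2 with the smallest p, with Eno2, Aldoc, Tpi1, Gapdh, Pgam1, Ldha, Slc2a1 and Hif1a always named where detected, and for the largest riser and faller the 3 genes with the most similar profile. Where a listed gene had several features, that with the highest mean was used. Alternatives changed the scaling, the background, the detection limit, the feature definition, array weights, a replicate block and the arrays included. Promoter windows are from RefSeq, and no protein sequences or probe sequences were used here.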

Additional observations from a re-analysis of the deposited data

Results flagged for a closer look

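Within the 4 mutant arrays, the gap between the most extreme array and its neighbour was compared with the whole range (Dixon's test at its 95% critical value) for 35 genes. It was exceeded by 3 genes, and chance alone does so for about 1 in 20 groups. For Gapdh the ratio was 0.83, with mutant replicate 1 at 12.59 (log2) and the other mutants at 12.66 to 12.67. For Pgam1 it was 0.848, with mutant replicate 2 at 8.76 and the others at 8.95 to 8.98. For Pgm1 it was 0.835, with mutant replicate 2 at 8.28 and the others at 8.63 to 8.69. None of the measured listed enzymes (Hk1, Hk2, Pfkl, Pfkm, Pfkp, Aldoa, Pgk1 and Pkm) exceeded the critical value.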

How the results depend on the processing

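The alternatives numbered 17 for the single genes, and fewer were run for the within-array differences. Pkm and Pfkp kept direction and call in all 17, at -1.13 to -0.58 and 0.55 to 1.18, where -0.58 and 0.55 come from the fit with 1 wild-type array, which has no wild-type spread. Median centring gave 1 member higher, 4 lower and a median of -0.22 over the 8 measured members, against 0.01 in the reported processing. It turned Pfkl to -0.049, Tpi1 to -0.25, Pgam1 to -0.25, Slc2a1 to -0.26 and Vhl to -0.055. Against wild-type replicate 3 alone, 1743 features were called, and Hk1 (-0.54), Tpi1 (-0.027), Slc2a1 (-0.17), Hif1a (-0.056) and Hk1 minus Hk2 (-0.32) changed sign. Array weights gave 2 members lower and a median of 0.13 over the same 8. Counting each probe ID, so that a repeated row counts more than once, called 6300 of 15415 probe IDs and gave Tpi1 at -0.018. Leaving out 1 array at a time gave 2943 to 4315 features called, 1 to 3 members higher and 1 to 2 lower. The median over the 8 measured members ran from -0.067 to 0.16. Without a wild-type array, 8 members were tested in place of 7, because Pgk1 passed the detection limit there through its mutant arrays. The count of 3 higher came from the fit without wild-type replicate 3. In those omissions Hk1 ran from -0.081 to 0.41 and was below 0 without wild-type replicate 1 (-0.054) or 2 (-0.081). Tpi1 ran from -0.031 to 0.036 and was below 0 without wild-type replicate 1 (-0.027) or mutant replicate 4 (-0.031). Slc2a1 ran from -0.059 to 0.13 and was below 0 without wild-type replicate 1 (-0.059) or mutant replicate 1 (-0.015) or 2 (-0.017). Hk1 minus Hk2 ran from -0.028, without wild-type replicate 2, to 0.44. The cause of these changes was not tested. Replicate numbers did not pair the arrays: deviations of same-numbered arrays correlated at -0.20, -0.16 and 0.06. A fit with the replicate number as a block, in which mutant replicate 4 has no partner and drops out, called 2861 features and 1 member higher, with Pfkl at 0.26 and Aldoc at 0.33 no longer past the threshold and Tpi1 at -0.031. Low signal limits Hk1 and Pgk1 in both groups, as most of their intensities lay near the floor of the arrays. It also limits Pfkp in wild type and Slc2a8, Pdk2 and Pcx in mutants. The same holds for G6pc3 and Hif1a on wild-type replicates 1 and 2.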
